A study of Mus musculus with 8 samples.

Results

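Axon guidance genes were taken from the gene tables of the 2 single-cell RNA libraries by symbol: semaphorins (Sema), plexins (Plxn), neuropilins (Nrp1, Nrp2), ephrins (Efna, Efnb), Eph receptors (Epha, Ephb), Slits, Robos, netrins (Ntn), UNC5 receptors and Dcc, without the Slitrk genes. Of 27998 gene rows in each table, 76 matched. The antisense genes Plxna4os1 to Plxna4os3 and the Golgi gene Unc50 matched by name only, which left 72 guidance rows for 70 symbols, because Ntn5 stood in 3 rows. They comprised 38 ligand rows and 34 receptor rows. In the libraries 5 rows had no unique molecular identifier (UMI, one counted RNA molecule) at all, 9 rows had fewer than 20 UMIs over both libraries and 58 rows had at least 20. The 58 rows are the ones counted below, and 3 of them, Slit1, Unc5a and Sema4a, lay just inside that limit with 20 to 30 UMIs. The 9 rows below it were Dcc, Epha10, Epha8, Ntn4, 1 row of Ntn5, Robo4, Sema3d, Sema3g and Sema4f.

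Guidance proteins were named for steering growing axons, and embryonic mesoderm, vessels and heart use the same proteins for migration, boundary formation and branching. Secreted class 3 semaphorins signal through plexins with a neuropilin as the binding partner, and neuropilins also bind vascular endothelial growth factors (VEGFs). Ephrins are membrane-bound and signal to Eph receptors on touching cells, Slits bind Robo receptors, and secreted netrins such as netrin-1 bind DCC and UNC5 receptors.

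The cells were mouse embryonic stem cells of the E14 background carrying an Nkx2-5-EmGFP reporter, maintained on mitomycin C-treated mouse embryonic fibroblast feeders. Differentiation began when leukemia inhibitory factor was withdrawn, and the cells grew as embryoid bodies for 2 days in hanging drops and 3 days in suspension. The comparison was between day 5 cells labelled wild type (WT) and day 5 cells labelled Tet triple knockout (TKO), which lack the enzymes that oxidise 5-methylcytosine, and the study asked what TET loss does to differentiation towards the cardiac lineage. Each genotype had 1 library, so no difference below has a replicate check and no test was run. The 6 samples of 5-hydroxymethylcytosine enrichment were not analysed here. The labels do not say whether the knockout was 1 clone. After filtering, 4389 WT-labelled cells gave 37503810 UMIs (median 7847 per cell) and 3196 TKO-labelled cells gave 33483998 UMIs (median 9678). Tet1, Tet2 and Tet3 stood at 12.3, 6.83 and 29.1 CPM (a gene's UMIs per 1000000 UMIs of the library or cell kind) in WT and at 22.8, 4.60 and 20.3 CPM in TKO, and as the deleted parts are not named these levels do not check the genotype. The 2 table headers shared 21 cell barcodes.

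Cells were assigned to kinds by 13 lists of 8 marker genes: a cell joined a kind with at least 3 markers detected and more than of any other list. Mesoderm differed between the libraries. The WT library held 1396 lateral mesoderm-like cells (31.8%) and 1267 matrix mesenchyme-like cells (28.9%), the latter carrying collagen, Postn and Lum. The TKO library held 459 lateral mesoderm-like cells (14.4%), 301 head mesenchyme-like cells (9.42%) and 172 cardiomyocyte-like cells (5.38%), with no cell passing the matrix mesenchyme gate. The WT library had no head mesenchyme-like cell and 14 cardiomyocyte-like cells. Nascent mesoderm-like cells numbered 2 in WT and 9 in TKO. Outside mesoderm the gates found 83 WT and 738 TKO endoderm-like cells, 388 and 15 erythroid-like cells, 152 and 38 endothelial-like cells, and 29 and 309 pluripotent epiblast-like cells. In both libraries cells remained without a kind, 972 in WT (627 of them tied between lists) and 1149 in TKO (1040 of them with under 3 markers). The 10 leading genes of the lateral mesoderm-like cells held 3 of their own markers in each library, but not the same ones. These were Tbx5, Msx2 and Bmp4 in WT and Hand1, Msx1 and Foxf1 in TKO. The leading genes also held 1 marker of another list, Cfc1 in WT and Col3a1 in TKO, and in TKO the UNC5 receptor gene Unc5c.

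Promoter sequences are shown for the 6 members that differed between the lateral mesoderm-like cells of the libraries and have a RefSeq window outside the gene, since TET enzymes act on methylated CpG and CpG is what these windows can be read for. Each is the stretch of 250 bases before a RefSeq transcription start (GRCm38.p6, the mm10 assembly), written 5′ to 3′ on the gene's strand, with every CpG in capitals. Of 15 members called in those cells, 12 had a promoter entry. The 6 shown are those whose window lies outside the gene's outermost RefSeq bounds. Efna1 (chr3:89280952-89281201, minus strand), Epha3 (chr16:63864176-63864425, minus strand), Efnb1 (chrX:99135811-99136060, plus strand), Nrp2 (chr1:62703067-62703316, plus strand) and Slit3 (chr11:35121206-35121455, plus strand) were lower in TKO, and Unc5c (chr3:141465314-141465563, plus strand) was higher. In cells with few matrix markers, described further on, Nrp2, Slit3 and Unc5c did not keep a 2-fold difference and Epha3 had too few UMIs.
Efna1: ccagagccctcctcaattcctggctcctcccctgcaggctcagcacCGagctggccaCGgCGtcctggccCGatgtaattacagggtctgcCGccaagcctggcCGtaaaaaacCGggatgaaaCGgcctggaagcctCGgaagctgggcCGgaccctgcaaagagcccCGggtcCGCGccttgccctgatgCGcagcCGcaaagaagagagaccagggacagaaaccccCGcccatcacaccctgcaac
Epha3: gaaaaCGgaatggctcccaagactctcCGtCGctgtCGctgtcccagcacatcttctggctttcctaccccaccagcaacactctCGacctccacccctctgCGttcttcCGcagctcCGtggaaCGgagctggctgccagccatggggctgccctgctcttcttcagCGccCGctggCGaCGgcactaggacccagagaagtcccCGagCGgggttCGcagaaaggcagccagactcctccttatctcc
Efnb1: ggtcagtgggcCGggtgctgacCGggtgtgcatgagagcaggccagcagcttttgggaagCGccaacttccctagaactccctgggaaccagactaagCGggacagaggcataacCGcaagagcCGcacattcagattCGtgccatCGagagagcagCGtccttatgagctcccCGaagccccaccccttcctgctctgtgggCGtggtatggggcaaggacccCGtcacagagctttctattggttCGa
Nrp2: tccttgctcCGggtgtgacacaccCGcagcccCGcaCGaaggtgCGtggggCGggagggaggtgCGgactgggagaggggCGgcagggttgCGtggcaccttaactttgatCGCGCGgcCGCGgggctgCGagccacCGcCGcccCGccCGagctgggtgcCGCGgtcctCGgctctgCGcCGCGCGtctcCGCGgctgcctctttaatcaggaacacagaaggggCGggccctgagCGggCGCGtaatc
Slit3: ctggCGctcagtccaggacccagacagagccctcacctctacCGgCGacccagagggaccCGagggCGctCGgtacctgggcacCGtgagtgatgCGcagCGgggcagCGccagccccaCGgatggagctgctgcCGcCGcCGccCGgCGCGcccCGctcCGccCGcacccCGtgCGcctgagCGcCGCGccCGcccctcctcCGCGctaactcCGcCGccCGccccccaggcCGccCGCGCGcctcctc
Unc5c: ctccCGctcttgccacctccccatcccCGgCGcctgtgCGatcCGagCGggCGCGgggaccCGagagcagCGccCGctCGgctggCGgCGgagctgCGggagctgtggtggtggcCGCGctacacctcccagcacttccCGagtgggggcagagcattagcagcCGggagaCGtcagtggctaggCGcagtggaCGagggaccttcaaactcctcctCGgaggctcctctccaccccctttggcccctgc
These windows hold 16 CpGs in Efna1 and in Epha3, 13 in Efnb1, 32 in Nrp2, 35 in Slit3 and 23 in Unc5c. Of 27018 RefSeq promoter windows of this length, 25.5% have at least 16, and 31.8%, 4.36%, 2.77% and 13.0% have as many as Efnb1, Nrp2, Slit3 and Unc5c or more. Among the guidance genes, 60 of 70 symbols had an entry, and their median was 16 CpGs against 6 over all promoters. The median was 17 (range 11 to 35) for the 9 members lower in the TKO library, 11 (range 1 to 39) for the 13 higher, and 19 (range 2 to 27) for the 27 tested members with neither call. The E-box pattern CANNTG, which reads the same on both strands and contains no CpG unless N supplies one, was in 29 of the 60 member windows (48.3%) and in 66.1% of all, and in none of the 6 shown. Of the members called in lateral mesoderm-like cells with an entry but not shown, Robo2, Sema3a and Sema4g held 1 E-box each. Epha4, Ntng1 and Slit2 held none. These patterns and counts are letters in a window only, and no methylation value was measured here.

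Over whole libraries the guidance genes split. Neuropilins, Slits and ephrin-B genes were lower in TKO, while EphA and EphB receptors, Robos and netrins were higher as family sums. The netrin sum was mostly Ntng1, with 104 of 111 WT and 399 of 503 TKO UMIs. The summed level of all 72 rows was 1869 CPM in WT and 974 CPM in TKO, 1.92-fold lower (95% interval 1.89 to 1.94, counting error only, as for every interval below). Nrp1 supplied 28640 of the 70113 WT UMIs, and without it the sums were 1106 and 721 CPM. A gene was called when it differed 2-fold or more on at least 20 UMIs. Of the 58 rows, 12 were lower in TKO (20.7%, against 11.5 percent of all 14230 genes with that many UMIs) and 17 were higher (29.3%, against 12.4 percent of all). The median log2 ratio of TKO to WT was 0.49, beside 0.14 for all genes. Fewer cells of a kind and less RNA per cell cannot be told apart in these sums.

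**Figure D1:**
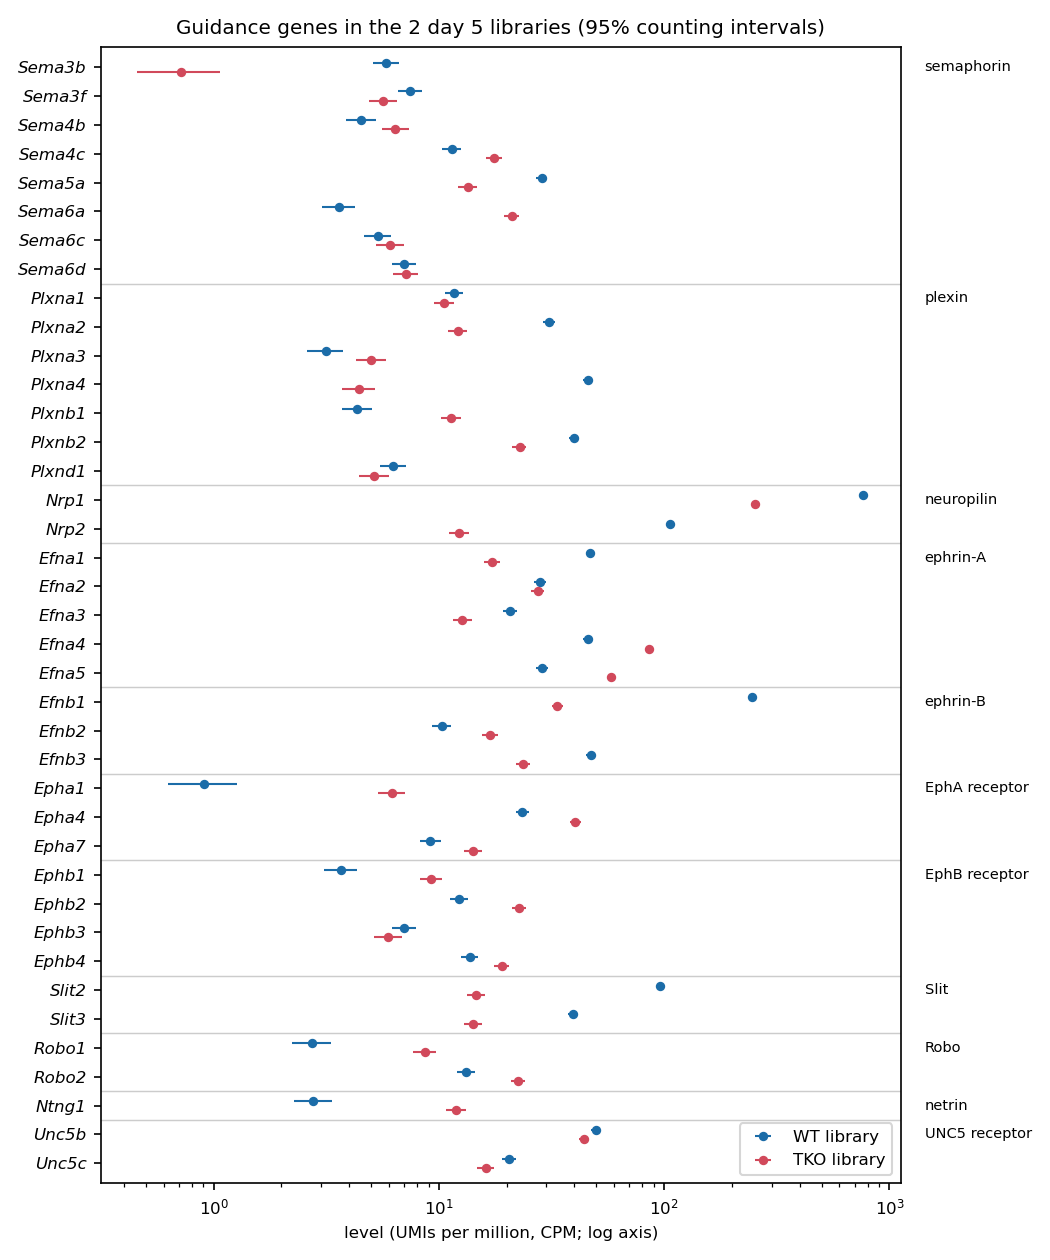
Level of each guidance gene with at least 5 CPM in 1 library, in CPM on a log axis, for the WT (blue) and TKO (red) library, with 95% counting intervals. The WT points of Plxna4, Nrp2, Sema3b, Efnb1 and Slit2 stand furthest to the right of the TKO points, and those of Epha1 and Sema6a furthest to the left.

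Among the ligands, 7 of 30 tested were lower and 9 higher. Ephrin-B1 (Efnb1), a ligand of EphB receptors that also signals back into its own cell, was at 244.8 CPM in WT and 33.6 in TKO, 7.28-fold lower (6.84 to 7.75). Ephrin-B3 (Efnb3) was at 47.4 and 23.6 CPM, 2.01-fold lower, whereas ephrin-B2 (Efnb2), the arterial ephrin, was at 10.3 and 16.9 CPM and was not called. The Robo ligands went the same way: Slit2 was at 95.8 CPM in WT and 14.6 in TKO, 6.56-fold lower (5.97 to 7.23), and Slit3 at 39.3 and 14.2 CPM, 2.77-fold lower (2.49 to 3.08). Slit1 had no WT UMI and 21 in TKO, at least 7.84-fold higher against a floor of 3 UMIs in the WT library. Both abundant Slit genes were thus lower and the scarce one higher.

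Ephrin-A genes were mixed. Efna1 was at 47.0 CPM in WT and 17.3 in TKO, 2.72-fold lower (2.47 to 2.99). Efna5 was at 28.7 and 58.1 CPM, 2.02-fold higher (1.88 to 2.18), and Efna4 at 45.9 and 85.8 CPM, 1.87-fold higher and so short of a call. Efna2 was at 28.2 and 27.5 CPM and Efna3 at 20.7 and 12.7 CPM. The family sum was 171 CPM in WT and 201 in TKO, closer together than the levels of Efna1 or Efna5.

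Semaphorins were at lower levels, with 5 of 17 tested higher and 2 lower. Sema6a, a membrane-bound ligand of A-type plexins, was at 3.60 CPM in WT and 21.1 in TKO, 5.85-fold higher (4.86 to 7.09). Sema3a, the secreted neuropilin-1 ligand, was at 0.693 and 4.00 CPM, 5.77-fold higher (3.77 to 9.16). In the other direction Sema3b was at 5.84 and 0.717 CPM, 8.15-fold lower (5.33 to 13.0), and Sema5a at 28.6 and 13.4 CPM, 2.13-fold lower. No call was made for Sema3f (7.47 and 5.67 CPM), Sema4b (4.53 and 6.42), Sema4c (11.4 and 17.6), Sema6c (5.36 and 6.09) or Sema6d (7.04 and 7.14). The semaphorin sum was 82.2 CPM in WT and 96.2 in TKO. Netrin-1 (Ntn1), a secreted attractant through DCC, had 1 UMI in WT and 93 in TKO, a ratio of 104 with an interval from 18.2 to 4158. Netrin-G1 (Ntng1), a membrane-anchored netrin that does not bind DCC, was at 2.77 and 11.9 CPM, 4.30-fold higher (3.45 to 5.38). Dcc itself had 1 UMI in all, in TKO.

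Among the receptors, 5 of 28 tested were lower and 8 higher. Nrp1, co-receptor for class 3 semaphorins and VEGF, was at 764 CPM in WT (755 to 773) and 254 in TKO (248 to 259), 3.01-fold lower (2.94 to 3.09). Nrp2 was at 106 and 12.3 CPM, 8.61-fold lower (7.77 to 9.55). Plexin A4 (Plxna4), a signalling partner of neuropilins, was at 45.7 and 4.42 CPM, 10.3-fold lower (8.74 to 12.3), and Plxna2 at 30.9 and 12.2 CPM, 2.54-fold lower. These 4 partners in class 3 semaphorin reception were all lower in TKO, whereas the A-type plexins Plxna1 and Plxna3 were not called. Plxnb1, the Sema4d receptor, was at 4.35 and 11.3 CPM, 2.61-fold higher (2.17 to 3.16). The remaining plexins were not called: Plxna1 was at 11.7 and 10.6 CPM, Plxna3 at 3.15 and 5.02, Plxnb2 at 39.7 and 22.8, and Plxnd1 at 6.27 and 5.17.

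Of 11 Eph receptors tested, 4 were higher and 1 lower. Epha1 was at 0.907 CPM in WT and 6.18 in TKO, 6.82-fold higher (4.73 to 10.1), and Ephb1 at 3.68 and 9.26 CPM, 2.52-fold higher (2.05 to 3.10). Epha3, an ephrin-A receptor of embryonic mesenchyme, was the exception at 3.65 and 0.209 CPM, 17.5-fold lower (8.26 to 44.3, on 137 and 7 UMIs). Higher without a call were Epha4 (23.5 and 40.3 CPM), Epha7 (9.17 and 14.2), Ephb2 (12.3 and 22.7) and Ephb4 (13.7 and 19.0), while Ephb3 was at 7.01 and 5.97. Of the Slit receptors, Robo1 was at 2.75 and 8.66 CPM, 3.15-fold higher (2.51 to 3.99), and Robo3 had 2 UMIs in WT and 84 in TKO, a ratio of 47.0 (12.6 to 395). Robo2 was at 13.2 and 22.4 CPM and was not called. The Slit sum was therefore 4.59-fold lower and the Robo sum 2.07-fold higher. The netrin receptors Unc5b (49.6 and 43.9 CPM) and Unc5c (20.4 and 16.1 CPM) differed by less than 1.5-fold, and Unc5d had 5 and 27 UMIs, 6.05-fold higher (2.30 to 20.1).

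By kind, the highest levels were spread over mesoderm, endoderm and vessel, often without a clear lead over the next kind. The highest level among 6 WT kinds was in endothelial-like cells for 10 of 49 members, in endoderm-like cells for 9, in lateral mesoderm-like cells for 8 and in visceral endoderm-like cells for 6. The interval of the ratio to the next kind lay above 1 for only 5, 2, 2 and 1 of these, in that order. Among 6 TKO kinds the highest level was in endoderm-like cells for 12 of 50 members, cardiomyocyte-like for 10, pluripotent epiblast-like for 9, endothelial-like for 8, lateral mesoderm-like for 6 and head mesenchyme-like cells for 5. There the interval lay above 1 for only 1, 3, 3, 3, 3 and 1 of these, in that order. In WT the matrix mesenchyme-like cells had the highest level for 16 of 49 members with at least 20 UMIs over the kinds compared. For 11 of these the interval of the ratio to the next kind lay above 1: Efna3, Efna5, Efnb1, Epha3, Nrp1, Nrp2, Plxna4, Plxnb2, Sema5a, Slit2 and Slit3. Nrp1 was at 1053 CPM there, 859 in lateral mesoderm-like, 330 in endoderm-like, 242 in visceral endoderm-like, 204 in endothelial-like and 43.7 in erythroid-like cells. Plxna4 was at 70.7 CPM in matrix mesenchyme-like and 45.3 in lateral mesoderm-like cells, and at 6.66 CPM or less in the other 4 WT kinds compared. Efnb1 was at 335 and 278 CPM in the same 2 kinds, and Slit2 at 131 and 113. For these 4 genes both mesoderm kinds were above the other 4 of the 6 WT kinds compared. The 14 cardiomyocyte-like, 12 mesothelium-like and 2 nascent mesoderm-like WT cells were too few to enter.

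In TKO the cardiomyocyte-like cells had the highest level of Slit3 (63.0 CPM against 21.0 in lateral mesoderm-like cells), of Plxna4 (23.3 against 9.97) and of the Eph receptor Epha7 (38.4 against 17.5 in head mesenchyme-like cells). Slit2 at 42.9 CPM and Robo2 at 58.6 CPM in cardiomyocyte-like cells did not stand apart from 36.3 and 57.3 CPM in lateral mesoderm-like cells, whose intervals overlapped theirs. Lateral mesoderm-like cells led for Nrp1 (693 CPM, against 618 in cardiomyocyte-like cells), Plxna2 (29.5 against 15.3 in head mesenchyme-like cells) and Unc5c (67.3 against 36.6 in cardiomyocyte-like cells). Head mesenchyme-like cells held 107 CPM of Nrp1, 8.13 of Slit2 and 2.19 of Unc5c, but led for Efnb1 at 78.4 CPM against 65.4 in lateral mesoderm-like cells. Head mesenchyme-like cells were therefore a mesoderm kind with less Nrp1, Slit2 and Unc5c than the lateral mesoderm-like and cardiomyocyte-like cells of TKO.

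Feeder fibroblasts share matrix genes with the matrix mesenchyme-like cells, so a list of 8 genes was read in them. Of the 8, Xist, Mmp3 and Lcn2 were at 0 in the 1267 cells, which allows up to 0.291% of cells with a UMI of each (exact binomial interval), and 5 were detected. Timp1 was in 15.0% of the cells. The summed list was 35.3 CPM in matrix mesenchyme-like cells, 14.6 in WT and 12.7 in TKO lateral mesoderm-like cells, where 48 of the 61 TKO UMIs were Ccl2 in 1 cell. Single genes of the list differed: in lateral mesoderm-like cells Timp1 had 127 WT and 5 TKO UMIs (9.94-fold lower, 4.15 to 31.1) and S100a4 had 26 and 2 (5.09-fold lower, 1.27 to 44.2). Over pooled mesoderm Timp1 was 14.1-fold, S100a4 19.6-fold and Thy1 3.38-fold lower (24 and 3 UMIs), in the direction of Efnb1, Nrp2, Plxna4 and Slit2. Ccl2 was 1.67-fold higher there, and Xist had 5 and 7 UMIs. Over whole libraries Timp1 was 4.67-fold and S100a4 6.96-fold lower in TKO, but Xist was 4.73-fold and Thy1 2.32-fold higher. The part of feeder cells in the WT values was not tested.

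**Figure D2:**
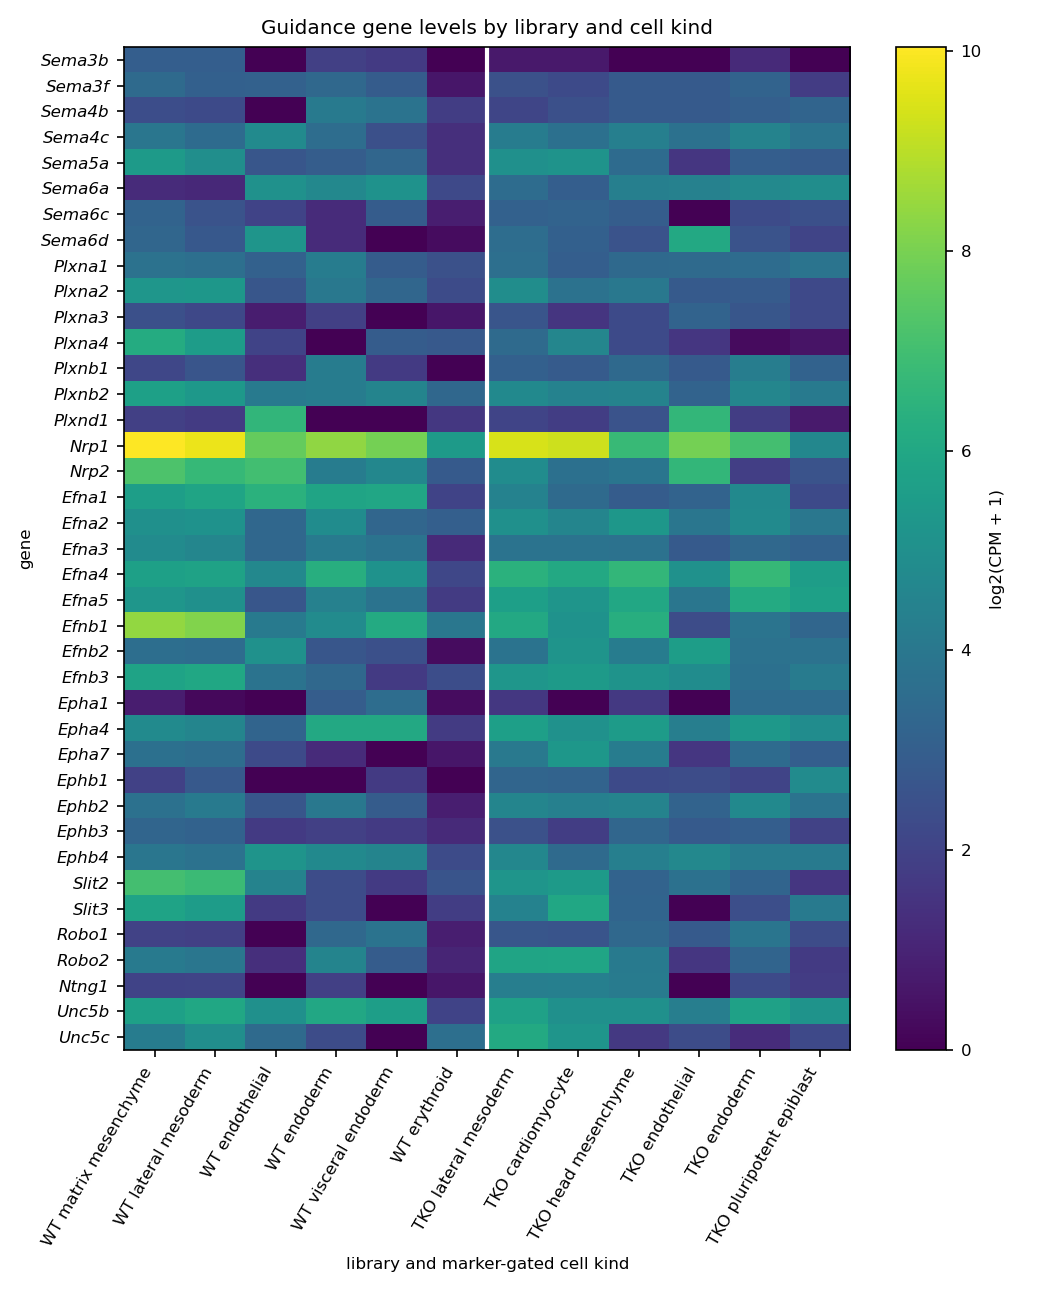
Levels of the same genes as log2(CPM + 1) by library and marker-gated cell kind, with WT kinds left of the white line and TKO kinds right of it. Nrp1 is bright in the mesoderm columns and dimmer in the head mesenchyme one, Plxnd1 and Sema6d stand out in both endothelial columns, and the WT erythroid column is dark.

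Lateral mesoderm-like cells were the mesoderm kind with enough cells in both libraries for a ratio. Within them Efnb1, Nrp2, Plxna4 and Slit2 were again lower in TKO, while the Slit receptor Robo2, Unc5c and Epha4 were higher although none of these 3 was called over whole libraries. Of 42 members tested, 8 were lower (against 9.88 percent of all 11543 genes) and 7 higher (against 7.03 percent). The median log2 ratio was 0.18, and 0.11 over all genes. WT cells of this gate carried a median of 3 of the 8 matrix markers and 1 mesothelium marker, and TKO cells 1 and 0. TKO cells carried a median of 1 head mesenchyme and 1 nascent mesoderm marker, and WT cells 0 of each. The gate therefore did not hold like cells in these respects.

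Efnb1 was at 278 CPM in WT and 65.4 in TKO lateral mesoderm-like cells, 4.25-fold lower (3.79 to 4.79). Plxna4 was at 45.3 and 9.97 CPM, 4.54-fold lower (3.38 to 6.23), and Nrp2 at 104 and 28.2 CPM, 3.68-fold lower (3.08 to 4.42). These are receptor parts for class 3 semaphorins, yet Nrp1 was at 859 and 693 CPM, 1.24-fold lower (1.19 to 1.29), and Plxna2 at 38.3 and 29.5 CPM, 1.30-fold lower (1.08 to 1.58). Slit2 was at 113 and 36.3 CPM, 3.12-fold lower (2.67 to 3.67), Slit3 at 46.3 and 21.0 CPM, 2.21-fold lower (1.78 to 2.76), and Efna1 at 56.8 and 20.8 CPM, 2.73-fold lower (2.21 to 3.41). Sema3b, with 87 and 3 UMIs, was 11.3-fold lower (3.76 to 56.1), and Epha3, with 36 and 2 UMIs, was 7.04-fold lower (1.81 to 60.4). The log2 ratio of Nrp1 was -1.59 over whole libraries and -0.31 within this kind, that of Efnb1 -2.86 and -2.09, and that of Plxna4 -3.37 and -2.18.

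On the higher side, Robo2 was at 14.5 CPM in WT and 57.3 in TKO lateral mesoderm-like cells, 3.96-fold higher (3.27 to 4.81). Unc5c, a netrin receptor, was at 30.1 and 67.3 CPM, 2.23-fold higher (1.92 to 2.60), and Epha4 at 22.7 and 49.4 CPM, 2.18-fold higher (1.83 to 2.60). Ntng1 was at 3.17 and 18.9 CPM, 5.96-fold higher (4.06 to 8.92), and Sema6a at 1.22 and 10.8 CPM, 8.86-fold higher (4.91 to 16.9). Sema4g and Sema3a were called on few UMIs, 24 and 23 for Sema4g and 9 and 14 for Sema3a. Sema5a, called lower over whole libraries, was at 30.5 and 31.8 CPM here, a ratio of 1.04 (0.856 to 1.26). By family, the Slit sum was 2.78-fold lower and the Robo sum 3.65-fold higher within this kind.

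The lateral comparison was repeated on cells with at most 1 matrix marker, 341 in WT and 423 in TKO, a choice made after seeing the values. Of 39 members tested 5 were lower (against 6.13 percent of all genes) and 6 higher (against 8.35 percent). The 5 lower were among the 8 above, and 4 of the 7 higher stayed higher, with Robo1 and Sema6d as further calls. Robo1 rested on 7 and 26 UMIs, and the interval of its ratio (0.916 to 5.91) included equal levels. Efnb1 was 3.60-fold lower (3.10 to 4.18), Plxna4 3.20-fold (2.13 to 4.88), Slit2 2.61-fold (2.10 to 3.25), Efna1 3.27-fold (2.51 to 4.28) and Sema3b 17.1-fold (4.16 to 151). Nrp2 was 1.98-fold (1.52 to 2.58) and Slit3 1.77-fold lower (1.32 to 2.37), both under the 2-fold line. Robo2 was 4.38-fold higher (3.05 to 6.46), Ntng1 4.90-fold (2.54 to 10.6) and Sema6a 9.92-fold (3.21 to 49.7). Unc5c at 1.52-fold (1.22 to 1.91) and Epha4 at 1.70-fold (1.30 to 2.24) were no longer called. Nrp1 had a ratio of 1.02 (0.962 to 1.08). Nrp2, Slit3, Unc5c and Epha4 thus crossed the 2-fold line, while Plxna4 and Sema3b also took other values and stayed past it. The part of matrix genes in the result was not tested further.

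**Figure D3:**
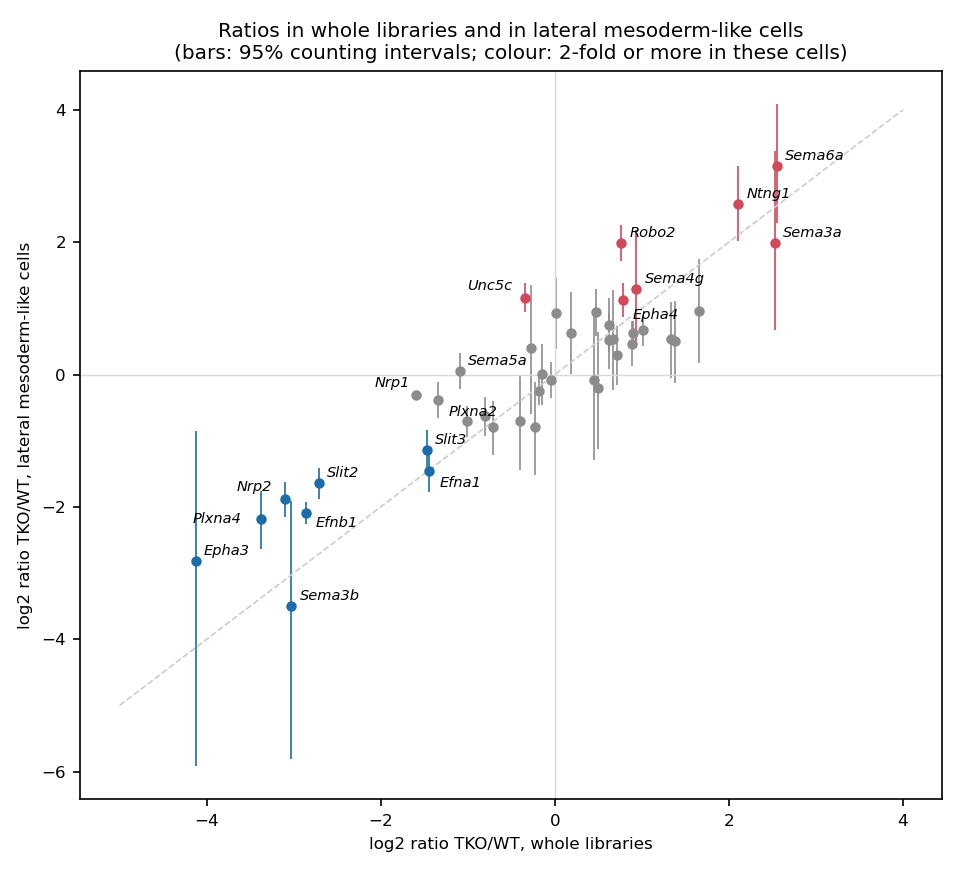
Log2 ratio of TKO to WT in whole libraries (horizontal) and in lateral mesoderm-like cells (vertical, with 95% counting intervals) for the 42 members tested there; blue and red mark members 2-fold or more lower or higher in these cells, and the dashed line marks equal ratios. Nrp1 sits near 0 on the vertical axis but at -1.59 on the horizontal one, and Unc5c has opposite signs on them.

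Over the pooled mesoderm kinds (2691 WT and 941 TKO cells) Nrp2, Plxna4, Slit2 and Slit3 were lower and Robo1, Robo2, Robo3 and 5 of 16 tested semaphorins higher in TKO. For 2 of these semaphorins the interval of the ratio included equal levels: Sema6b (10 and 10 UMIs, 0.884 to 6.34) and Sema4d (13 and 12 UMIs, 0.911 to 5.19). Of 7 plexins tested only Plxna4 was called. Of 51 members tested 8 were lower (15.7%, against 11.7 percent of all genes) and 11 higher (21.6%, against 9.18 percent). The median log2 ratio was 0.26, beside 0.10 for all genes. At the lower end were Sema3b (13.7-fold), Epha3 (11.4-fold), Nrp2 (5.91-fold, 125 and 21.1 CPM), Plxna4 (5.69-fold, 56.9 and 10.0 CPM), Efnb1 (4.74-fold) and Slit2 (4.31-fold). At the higher end were Robo3 (1 and 21 UMIs), Sema6a (10.4-fold, 1.26 and 13.1 CPM), Sema3a (8.01-fold), Ntng1 (5.83-fold), Epha1 (4.50-fold) and Robo2 (2.84-fold, 15.2 and 43.3 CPM). The 3 Robo genes tested were all called higher and both Slit genes tested were called lower. Nrp1 was at 944 and 482 CPM, 1.96-fold lower and so just short of the line. The kinds in this pool differ between the libraries, and WT had no head mesenchyme-like cell. In TKO head mesenchyme-like cells Robo3 was at 5.94 CPM, Sema3a at 8.44 and Robo1 at 9.38. In lateral mesoderm-like cells Robo3 had 0 and 1 UMIs and Robo1 was 1.95-fold higher, short of a call. Robo2 (3.96-fold) and Sema3a (3.98-fold, 9 and 14 UMIs) were called higher there too. The part of the mixture of kinds in the pooled ratios was not tested.

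Endoderm-like cells gave a comparison outside mesoderm, on 83 WT and 738 TKO cells. WT cells of this gate carried a median of 1 matrix, 1 lateral mesoderm, 1 mesothelium and 2 visceral endoderm markers. TKO cells carried a median of 0 of each, so this gate did not hold like cells in this respect either. Neuropilins were lower in TKO there too. Nrp1 was at 330 and 131 CPM, 2.53-fold lower (2.19 to 2.91), and Nrp2 at 17.8 and 2.69 CPM, 6.62-fold lower (3.08 to 13.6). Of 42 members tested 7 were lower (against 6.4 percent of all genes) and 7 higher (against 12.8 percent). Efna1 was 2.21-fold lower (57.5 and 26.1 CPM) and Efna5 3.34-fold higher (20.5 and 68.7 CPM). Robo2 was at 21.9 and 8.41 CPM, 2.60-fold lower (1.41 to 4.52), opposite to its direction in lateral mesoderm-like cells. Plxna2, Sema4b and Efnb1 were lower by 2.39-fold, 2.31-fold and 2.04-fold. Of the 7 higher, Epha7, Sema6c, Sema6d, Ephb3, Slit2 and Efnb2 rested on 4 or fewer WT UMIs. Ephb1, Ntn1, Plxnd1 and Sema3c had no WT UMI, and 22 to 32 TKO UMIs each gave no 2-fold bound. Without Nrp1 the members summed to 666 CPM in both libraries.

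Endothelial-like cells had their own set. Plexin D1 (Plxnd1), the vascular semaphorin receptor, was at 95.6 CPM in WT and 100.3 in TKO endothelial-like cells, 34.4 times the next WT kind (22.8 to 53.5) and 20.1 times the next TKO kind (11.2 to 37.8). Sema6d was at 36.7 and 65.5 CPM, Efnb2 at 32.9 and 47.1 CPM, and Nrp2 at 125 and 100.3 CPM. Nrp2 in TKO was 3.55 times higher there than in the next kind (2.51 to 4.95), and in WT matrix mesenchyme-like cells exceeded endothelial-like cells by 1.19 times (1.02 to 1.41). The TKO set had 38 cells, under the minimum of 50 set for ratios between libraries, so only levels are given.

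Shares of cells with a UMI were read at equal depth. Each cell was thinned to 4000 UMIs, which left out 372 WT and 190 TKO cells. Nrp1 was detected in 90.4% of 1318 WT (88.6 to 91.9) and 84.6% of 449 TKO lateral mesoderm-like cells (81.0 to 87.8), and in 95.9% and 96.1% without thinning. Efnb1 was in 60.7% of WT (58.0 to 63.3) and 19.6% of TKO cells, and in 78.9% and 40.1% without thinning. Slit2 was in 33.7% and 12.7% (53.3% and 25.7% without thinning), Nrp2 in 29.8% and 8.69% (47.7% and 21.1%), and Plxna4 in 15.4% and 3.79% (27.7% and 8.28%). In the other direction Robo2 was in 4.48% and 21.8% (10.5% and 37.7% without thinning) and Unc5c in 10.1% and 22.5% (19.6% and 42.9%). The median depth before thinning was 8172.5 UMIs in the WT and 9680 in the TKO cells. For Efnb1, Slit2, Nrp2 and Plxna4 the share was lower in TKO with and without thinning, for Robo2 and Unc5c higher, and for Nrp1 it was lower only after thinning.

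WT erythroid-like cells, taken here as a kind that should lack these genes, with a median of 10367 UMIs, gave a background share: 11.5% of 364 cells for Nrp1, 2.75% for Efnb1, 1.10% for Slit2, 1.65% for Nrp2 and for Plxna4, 0.824% for Robo2 and 3.57% for Unc5c. All 7 lateral shares in WT were above these. Nrp1 had both the highest of these shares and the highest WT library level. Unc5c had a higher share than Efnb1 or Slit2 at a lower CPM, each on few cells. The part of free RNA in these shares was not tested. The TKO erythroid-like set, 15 cells, was too small for such a level. TKO endoderm-like cells gave 0.141% for Unc5c and for Plxna4, and 2.11% for Robo2, below the TKO lateral shares. The median number of guidance genes per thinned cell was 5 in WT lateral and matrix mesenchyme-like cells, 4 in TKO lateral and cardiomyocyte-like cells, 3 in TKO head mesenchyme-like cells and 0 in WT erythroid-like cells.

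**Figure D4:**
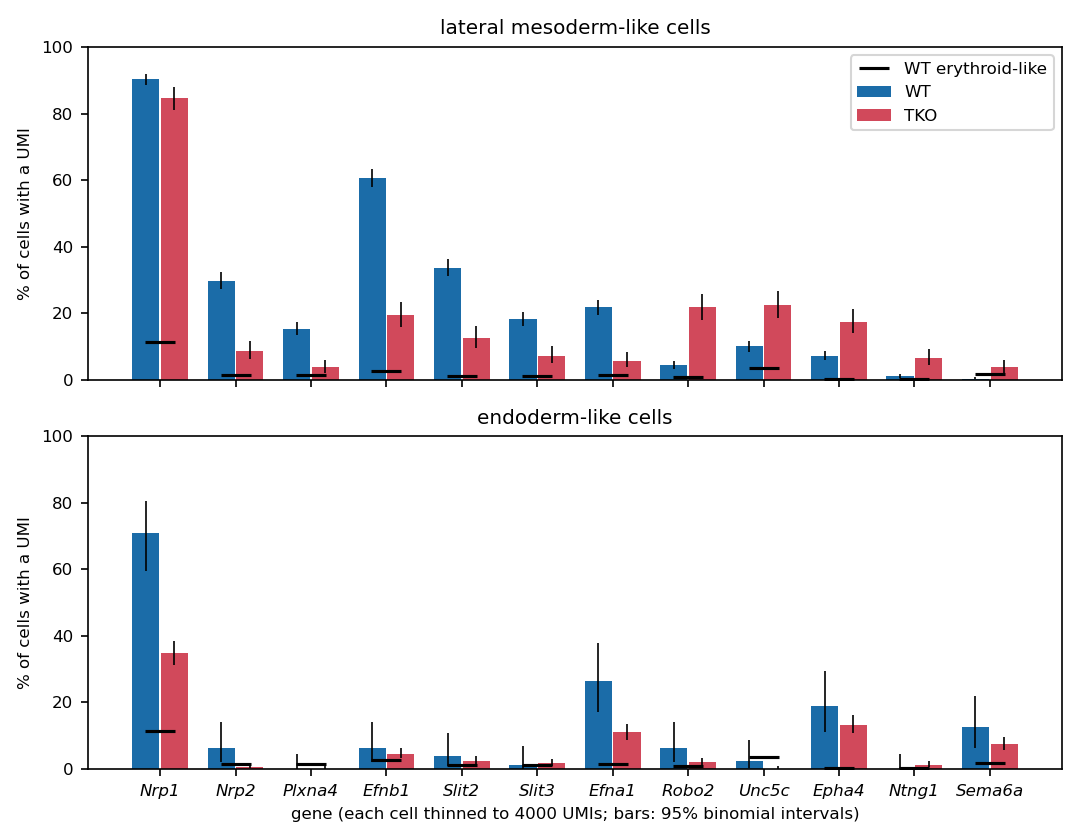
Percent of lateral mesoderm-like (top) and endoderm-like cells (bottom) with a UMI of each gene after thinning every cell to 4000 UMIs, WT in blue and TKO in red, with 95% binomial intervals; black ticks give the WT erythroid-like share. In lateral cells Efnb1 and Slit2 are lower in TKO and Robo2 and Unc5c higher, and Nrp1 stays above 80 percent in both.

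Ligand and receptor were seen in the same thinned lateral cell in few cells. Efnb1 with Ephb2 was in 63 of 1318 WT (4.78%) and 4 of 449 TKO cells (0.891%), Slit2 with Robo2 in 1.59% (0.989 to 2.43) and 3.56% (2.05 to 5.72), and Efna5 with Epha4 in 0.607% (0.262 to 1.19) and 3.34% (1.88 to 5.45). The other pairs read were Sema5a with Plxna2 (1.90% and 0.891%), Sema3f with Nrp2 (0.986% and 0.223%), Efna1 with Epha4 (1.44% and 0.891%) and Efnb2 with Ephb4 (0.228% and 0.668%). Each share rests on both genes being sampled in a shallow cell. It also moves with the share of either gene alone, so a change in pairing cannot be read from it. Slit2 was in 444 and Robo2 in 59 of the WT cells, and in 57 and 98 of the TKO cells.

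Genes that work with these families were read from 2 lists. Of 41 tested partner genes (co-receptors, adaptors and effectors), 4 were lower in the TKO library (9.76%, against 11.5 percent of all genes) and 7 higher (17.1%, against 12.4 percent), with a median log2 ratio of 0.14, the value of all genes. Higher were Nrcam (2 and 25 UMIs), the repulsive guidance molecule Rgma (3.33 and 24.0 CPM, 7.21-fold), and the collapsin response mediators Dpysl3 (7.04 and 27.7 CPM, 3.93-fold) and Dpysl5 (4.75 and 18.7 CPM, 3.93-fold). Lower were Ngef (44 and 11 UMIs), L1cam (66 and 22 UMIs), Srgap3, a Slit-Robo effector (4.08 and 1.85 CPM, 2.20-fold), and Dpysl2, which carries the class 3 semaphorin signal to microtubules (106 and 48.7 CPM, 2.19-fold). In lateral mesoderm-like cells 4 of 34 tested partner genes were lower (11.8%, against 9.88 percent of all genes) and 3 higher (8.82%, against 7.03 percent). Rgma, Dpysl3, Dpysl5 and L1cam (27 and 1 UMIs) kept their calls there. Srgap3 (1.35-fold lower, 0.718 to 2.74) and Dpysl2 (1.84-fold lower) were not called there, and Nrcam and Ngef had too few UMIs. Of 7 VEGF ligands and receptors that pair with neuropilins, placental growth factor (Pgf) was lower at 23.2 and 9.20 CPM (2.52-fold) and none was higher. The VEGF receptor Kdr was at 46.2 and 56.0 CPM, and Vegfa at 8.11 and 7.44. In lateral mesoderm-like cells Pgf was 3.17-fold lower, Vegfa 2.12-fold lower (103 and 19 UMIs) and Kdr 2.08-fold higher (36.3 and 75.6 CPM).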

How the data were processed

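The authors deposited a table of raw counts for either library, with genes in rows and cells in columns, read here as UMI counts. The submitters' processing notes name Seurat 3 and mm10 without stating a role. The sources used here do not give the aligner, counting tool, strand use or single-cell chemistry. The TKO-labelled table named 3224 cells but held 3223 values in each row, so cells were read by position. In 116 rows the names differed by an ending only, and rows were matched by position.

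Cells were kept with at least 500 genes, 1000 UMIs and at most 15% mitochondrial UMIs, which removed 3 WT and 26 TKO cells. Scrublet (scanpy 1.11.5) marked 3 WT cells (0.0683%) and 1 TKO cell (0.0313%), so few that the caller cannot be relied on; these were removed, and other doublets stay in the data. UMIs were summed over cells and scaled to CPM, UMIs per 1000000 of the library or kind (numpy 2.4.6, scipy 1.17.1, python 3.11.15; figures by matplotlib 3.10.9). Levels have exact Poisson, ratios and shares exact binomial (Clopper-Pearson) 95% intervals, which cover counting error only. With 1 library per genotype there was no test. A call is a ratio of 2-fold or more on at least 20 UMIs, against a floor of 3 UMIs where a library had 0, and list medians use a prior of 0.5. The ratio code was tested on simulated counts.

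The rule's spelling reaches only Unc50 among the Unc5 symbols, and Unc5a to Unc5d were read as meant. Named are members with at least 5 CPM in 1 library, others with 20 UMIs and a 4-fold ratio, up to 6 at either end within a kind and up to 4 at either end of each list. The members and lists were chosen with earlier results of these data known. Alternatives were the cell filter, doublet removal, scaling, centring, count minimum, gate and thinning depth.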

Additional observations from a re-analysis of the deposited data

Results flagged for a closer look

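The Slit ligand gene Slit2 and its receptor gene Robo2 had opposite directions in 2 kinds of cell. Slit2 had a log2 ratio of TKO to WT of -1.64 in lateral mesoderm-like cells and 1.01 in endoderm-like cells, the latter on 3 WT and 71 TKO UMIs with an interval of the ratio from 0.664 to 10.0. Robo2 had a log2 ratio of 1.99 in lateral mesoderm-like cells and -1.38 in endoderm-like cells, on 16 WT and 72 TKO UMIs in the latter. In both kinds the gate held cells with unlike marker medians in the 2 libraries. With 1 library per genotype these differences between kinds were not tested.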

How the results depend on the processing

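No paired analysis was possible because each genotype had 1 RNA library. Over whole libraries the count of lower members was 11 to 14 and of higher members 14 to 19 over all settings tried. The main counts were 12 and 17. Over all genes the shares ran from 10.2 to 12.9 percent lower and from 10.2 to 13.5 percent higher. Centring on the median of all genes shifts every log2 ratio by 0.14 and gave 12 and 15 (12.9 and 10.8 percent of all genes). In lateral mesoderm-like cells the lower count of 8 became 5 (6.13 percent of all genes) in cells with at most 1 matrix marker. This setting was added after seeing the data, as was the inclusion of cells tied between mesoderm lists. With ties included, pooled mesoderm had 9 lower and 10 higher, against 12.1 and 9.34 percent of all genes. Gates on thinned cells gave 10 lower and 8 higher of 41 lateral members tested, against 9.83 and 6.24 percent of all genes. In endoderm-like cells the higher count of 7 became 4 with at least 4 markers, against 13.7 percent of all genes. With the mean over cells of CPM per cell it became 11, with 6 lower, against 13.6 and 6.81 percent of all genes. The median log2 ratio in endoderm-like cells ran from -0.34 to 0.16. In pooled mesoderm the median of 0.26 became -0.015 with gates on thinned cells. The counts there became 10 lower and 8 higher of 45 (11.6 and 8.26 percent of all genes), against main counts of 8 and 11. With gates on thinned cells Sema4d in pooled mesoderm turned to -0.21 and Ephb3 in endoderm-like cells to -0.063, both on few UMIs; the cause was not tested. Of single-gene ratios, 183 of 196 repeats over whole libraries and 77 of 90 in lateral cells stayed within the counting interval of the main value. With 1 library each, no setting measures the spread between cultures, and genes under 20 UMIs were out of reach at this depth.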

Other observations

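Pluripotent epiblast-like cells of the TKO library (309 cells) had the highest level of 9 of 50 members among the TKO kinds, 3 of them with an interval above the next kind: Ephb1, Ntn1 and Sema4d. Ephb1, an ephrin-B receptor, was at 27.7 CPM there, 3.17 times the next TKO kind (2.22 to 4.62). Sema4d was at 8.10 CPM, and Ntn1 at 7.42 CPM was 1.98 times the endoderm-like level (1.18 to 3.33). Robo3 was at 7.87 CPM, against 5.94 CPM in head mesenchyme-like cells, a ratio of 1.33 whose interval (0.738 to 2.45) includes equal levels. Nrp1 was at 23.8 CPM in these cells and Plxna4 at 0.450 CPM. The WT library had 29 pluripotent epiblast-like cells, too few for a comparison.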
